A study of Mus musculus with 15 samples.

Results

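Mammospheres that had received DAPT were compared with mammospheres that had received vehicle. DAPT inhibits γ-secretase, the membrane protease that releases the active intracellular part of Notch receptors. The comparison was chosen by sample title, which gave 3 DAPT arrays and 3 vehicle arrays out of 15. The spheres came from mammary tumours of FVB/N mice with the MMTV-PyMT transgene, in which the mouse mammary tumour virus promoter drives the polyoma middle T oncogene in mammary epithelium. Every group carried this oncogene and was grown unattached without serum, in medium with EGF, FGF and B27. DAPT or vehicle was added after 10 days of sphere culture and left for 2 days, so RNA was taken at 12 days. The other 9 arrays held spheres treated the same way with inhibitors of MEK1 (U0126), FAK (TAE226) or Src (PP2), 3 arrays each. Neither inhibitor doses nor the ages of the mice are stated in these sources.

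Notch receptors are cut by ADAM proteases when a Delta or Jagged ligand on a neighbouring cell binds them, and then by γ-secretase. The released fragment joins the DNA-binding protein RBPJ and switches on genes such as those of the Hes and Hey repressors. In the mammary gland, Notch is known for favouring luminal over basal fate, while basal cells depend on the transcription factor p63. γ-Secretase also cuts many other membrane proteins, so DAPT is not selective for Notch.

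Values are log2 signals of 1 probe set per gene on Affymetrix Mouse430_2 arrays, and a fold change is DAPT over vehicle. A signal on this scale can be set against the same gene in another group but not against another gene, because probe sets bind with different strength. Of 18193 genes on the array, 11412 were tested with limma across all 15 arrays, and all adjusted p-values of genes come from that fit. The ratio of 3′ to 5′ actin signal, which rises as RNA is degraded, averaged 1.35 ± 0.07 under DAPT and 1.42 ± 0.06 in vehicle (SD, n = 3 each; exact permutation test, two-sided p = 0.3, where 0.1 is the smallest p possible). The arrays were numbered in the order of the groups, so array order and treatment cannot be told apart. The labels call the replicates biological without saying whether they came from separate mice or cultures, and p-values therefore measure only the spread between these samples.

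DAPT changed the level of many genes by small amounts. Past an adjusted p of 0.05, 3948 genes differed (34.6% of those tested), with 1950 higher (17.1%) and 1998 lower (17.5%). The median log2 fold change was 0.40 among the genes that rose and -0.39 among those that fell. DAPT and vehicle arrays did not overlap for 5312 genes (46.5%). A change of at least 2-fold was reached by 184 genes that rose and 250 that fell, together 3.8% of genes tested, and a change of at least 4-fold by 34 and 86. The balance of directions depends on scaling. With each array set to a common median, all log2 fold changes shifted by -0.13, and 689 genes were then called higher and 2444 lower. Changes below are given on the authors' scaling.

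Most markers of other cell types were near background. The spheres carried epithelial markers on all arrays, with 9 of 10 luminal and 7 of 9 basal markers above the array median on all 3 DAPT arrays and 10 and 6 on all 3 vehicle arrays. None of 9 lymphocyte, 11 endothelial, 12 fibroblast, 8 muscle or 3 erythroid markers on the array reached this level on all 3 arrays of either group. Of 6 neutrophil, 6 adipocyte and 5 nerve markers, 1 each did so in both groups. The neutrophil marker tested, S100a8, fell by 1.03 (adjusted p = 1.54e-05). Of 14 leukocyte markers, 3 did so in each group, and Ptprc, the pan-leukocyte marker CD45, did not pass the filter on dim genes. In bulk RNA, fewer cells of a type and less RNA per cell cannot be told apart.

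Notch target genes fell, with exceptions. Nrarp, a target whose protein binds the Notch complex and limits it, had log2 signals of 6.01, 6.75 and 6.47 on the DAPT arrays, against 9.09, 9.00 and 9.34 on the vehicle arrays (log2 fold change -2.74, SE 0.20, adjusted p = 1.43e-08). The repressor Hes1, which holds back differentiation genes, had 9.31, 9.11 and 9.25 on the DAPT arrays, against 10.37, 10.39 and 10.68 on the vehicle arrays, a log2 fold change of -1.26 (adjusted p = 1.91e-08). Hey1, a related repressor, had 11.06, 10.94 and 11.02 on the DAPT arrays, against 12.22, 12.05 and 12.33 on the vehicle arrays (log2 fold change -1.19, SE 0.06, adjusted p = 3.61e-10). The groups did not overlap for any of the 3 genes, and every DAPT array lay below every vehicle array. Low values were not confined to DAPT. Against the same vehicle arrays, log2 fold changes of Nrarp were 0.63 under U0126, -0.81 under TAE226 and -1.62 under PP2. In the same order, those of Hey1 were -0.43, -1.26 and 0.10, and those of Hes1 -0.07, -0.16 and -0.26. The receptor gene Notch3, which is itself induced by Notch, had 9.83, 9.71 and 9.80 on the DAPT arrays, against 10.51, 10.46 and 10.43 on the vehicle arrays (log2 fold change -0.69, SE 0.05, adjusted p = 3.64e-08). Dtx1, which encodes a ubiquitin ligase of the pathway and is also listed as a target, moved the other way, with 9.30, 9.15 and 9.44 on the DAPT arrays, against 8.42, 8.48 and 8.07 on the vehicle arrays (log2 fold change 0.97, SE 0.15, adjusted p = 7.02e-05). Averaged over all its probe sets, Dtx1 did not pass (0.28, adjusted p = 0.45). Heyl had overlapping groups near the array median, at 6.33 ± 0.48 under DAPT and 6.24 ± 0.56 in vehicle (SD, n = 3 each; adjusted p = 0.866). Of 6 Notch targets tested, 4 fell and 1 rose, with a median log2 fold change of -0.94, against 0.02 over all genes tested. Hes5, Hes7 and Hey2, the other 3 of 9 targets listed, did not pass the filter on dim probe sets.

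The 250 bases before the start of the Notch targets with the greatest change and a RefSeq window are shown because RBPJ binds the core letters TGGGAA.
Nrarp: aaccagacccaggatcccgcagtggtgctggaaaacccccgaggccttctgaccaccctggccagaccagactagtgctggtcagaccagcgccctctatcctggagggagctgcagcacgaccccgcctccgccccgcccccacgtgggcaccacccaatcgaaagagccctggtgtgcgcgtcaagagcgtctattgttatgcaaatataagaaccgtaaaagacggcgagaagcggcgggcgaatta
Dtx1: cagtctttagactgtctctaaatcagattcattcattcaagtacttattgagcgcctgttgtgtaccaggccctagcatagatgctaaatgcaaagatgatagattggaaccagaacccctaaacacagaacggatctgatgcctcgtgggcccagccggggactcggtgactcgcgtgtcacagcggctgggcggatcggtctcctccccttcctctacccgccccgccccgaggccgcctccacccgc
The Nrarp window is chr2:25180508-25180757 on the plus strand and the Dtx1 window chr5:120711670-120711919 on the minus strand of GRCm38.p6, from RefSeq. Capitals would mark TGGGAA on either strand, and neither window holds it. Of the tested genes, 9268 had a window of this kind, and 23.7% of these held the motif. The share was 22.0% among genes lower under DAPT and 23.5% among genes higher.

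Notch ligands and receptors moved in both directions. Jag2, a Jagged ligand, had 8.87, 8.66 and 8.91 on the DAPT arrays, against 7.36, 7.72 and 7.38 on the vehicle arrays (log2 fold change 1.32, SE 0.16, adjusted p = 5.88e-06). Dll1, another ligand, had 12.55, 12.43 and 12.63 on the DAPT arrays, against 11.76, 11.67 and 11.87 on the vehicle arrays (log2 fold change 0.77, SE 0.06, adjusted p = 6.34e-08). Both ligands stood higher on every DAPT array than on any vehicle array. Dlk2, a Delta-like protein without the usual receptor-binding domain, also rose (log2 fold change 0.99, adjusted p = 0.00171). Jag1 fell, at 10.43 ± 0.02 under DAPT and 11.58 ± 0.12 in vehicle (log2 fold change -1.14, SE 0.06, adjusted p = 5.88e-10), but DAPT spheres held more Jag1 than the mean of the other inhibitors (difference 0.41, adjusted p = 1.42e-05). The receptors Notch1 and Notch2 did not pass, with log2 fold changes of -0.08 (adjusted p = 0.433) and 0.13 (adjusted p = 0.185).

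Of 23 genes for Notch processing and the nuclear complex, 7 rose, none fell and 16 did not pass. Rbpj, the DNA-binding partner of Notch, had 10.59, 10.61 and 10.55 on the DAPT arrays, against 10.22, 10.22 and 10.17 on the vehicle arrays (log2 fold change 0.38, SE 0.05, adjusted p = 4.43e-05). Furin, the protease that matures the receptor precursor, rose by 0.70 (adjusted p = 5.03e-04). Among subunits of γ-secretase itself, Aph1b rose by 0.42 (adjusted p = 8.65e-05), while Aph1a (-0.06, adjusted p = 0.526, but 0.19 over all its probe sets, adjusted p = 0.0058) and Psenen (-0.22, adjusted p = 0.0935) did not pass. The antagonist Numb rose by 0.31 (adjusted p = 6.16e-04). The ADAM proteases that make the first cut did not pass, with Adam10 at 0.08 and Adam17 at -0.07 (adjusted p = 0.571 and 0.452). With arrays set to a common median, 3 of the 23 genes were called higher, and neither Numb (adjusted p = 0.22) nor Rbpj (adjusted p = 0.07) passed.

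**Figure D1:**
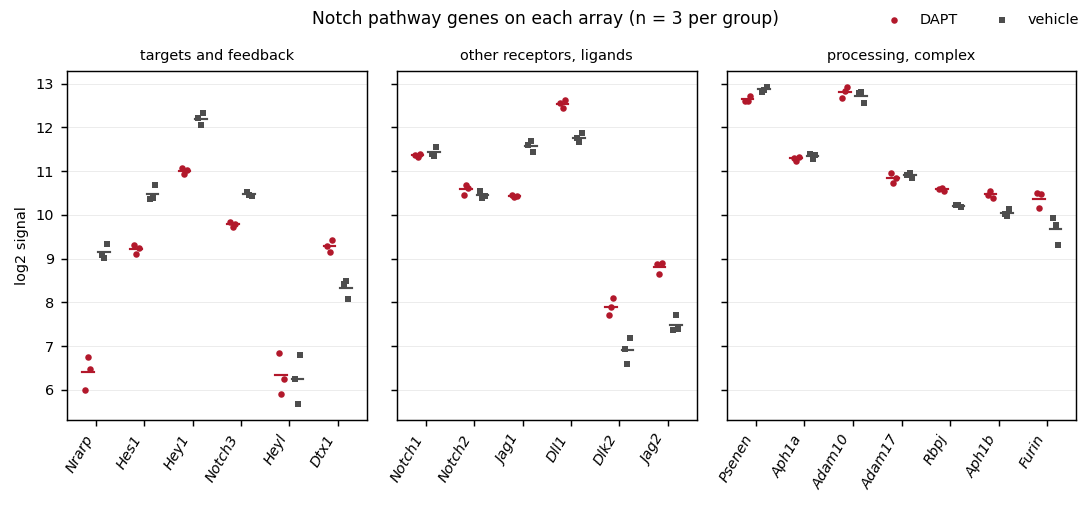
Log2 signal of Notch pathway genes on each array, with DAPT as red circles left of vehicle as grey squares and bars at the mean of 3 arrays. Nrarp, Hes1, Hey1, Notch3 and Jag1 lie lower under DAPT, Dtx1, Dll1, Dlk2 and Jag2 higher, and Notch1, Notch2 and Heyl overlap; levels of different genes are not comparable.

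Across gene lists, the falls and rises fell on different functions. Most interferon-stimulated genes, mitotic genes and stress-response genes tested were lower under DAPT. Basal epithelial, adhesion, growth factor and milk genes were higher more often than the 17.1% of all genes tested. Counts and medians describe the lists, and no list was tested as a set.

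**Figure D2:**
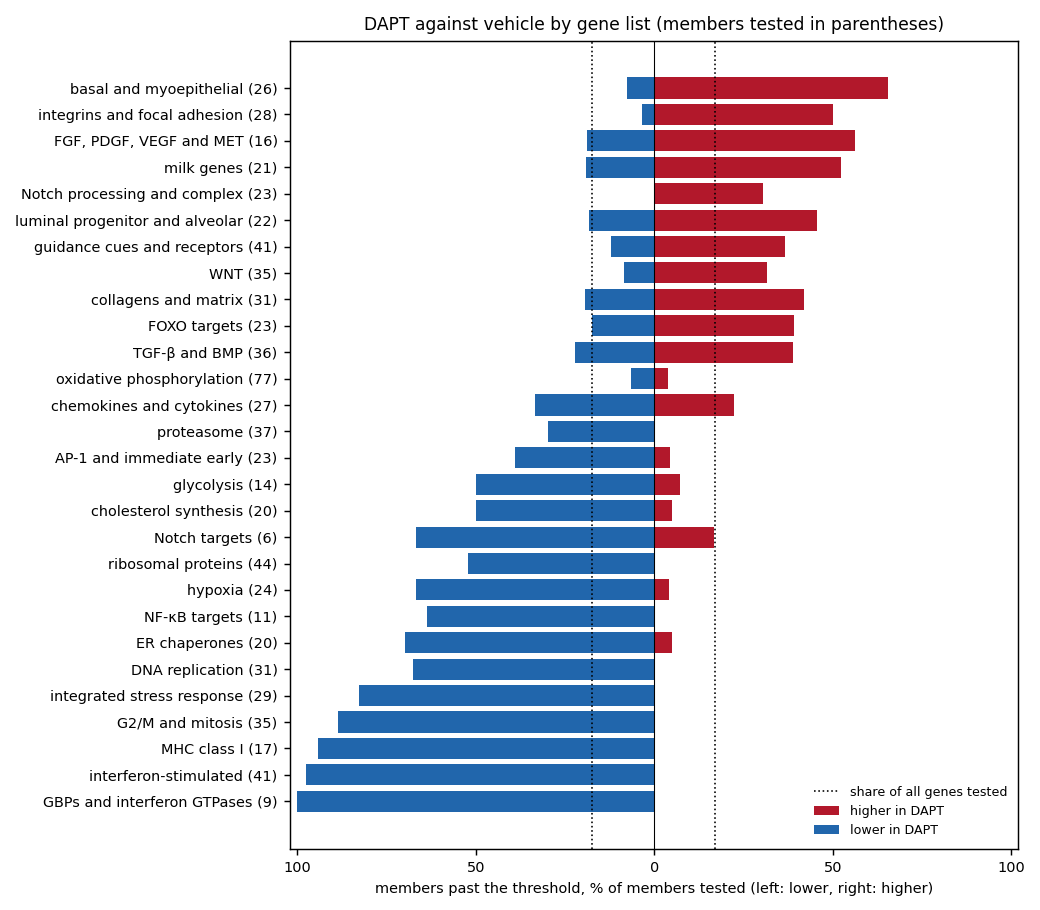
Share of each list's tested members that passed the threshold, as a percentage, with members lower under DAPT to the left in blue and members higher to the right in red; dotted lines mark the shares of all genes tested, 17.5% lower and 17.1% higher. Interferon, MHC class I and mitotic lists lie almost wholly to the left, and the basal and myoepithelial list has the longest bar to the right.

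A second contrast asked which changes set DAPT apart from the other inhibitors. It subtracted the mean of U0126, TAE226 and PP2 from DAPT and used no vehicle array. It called 3212 genes (28.1%), 1685 higher (14.8%) and 1527 lower (13.4%), and 270 of them (2.37%) by at least 2-fold. A gene was counted as apart if it was called against vehicle and, in the same direction, against each other inhibitor and against their mean. This held for 203 genes that rose (1.78% of those tested) and 159 that fell (1.39%). Of these 362 genes, 71 did not pass the threshold under any other inhibitor, 40 of them higher and 31 lower under DAPT.

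Krt15, a keratin of basal and progenitor cells in stratified epithelia, stood furthest from the other inhibitors. Its log2 signals were 11.87, 11.79 and 11.78 on the DAPT arrays, against 7.87, 7.83 and 7.82 on the vehicle arrays (log2 fold change 3.97, SE 0.45, adjusted p = 2.67e-06). Means in the other groups were 3.49 ± 1.42 under U0126, 6.15 ± 0.50 under TAE226 and 7.45 ± 0.07 under PP2 (SD, n = 3 each), and the gene was dim on all U0126 arrays. Against their mean the fitted difference was 6.12 (adjusted p = 1.53e-09), and it was at least 5.19 with the U0126 arrays set to their medians. The arrays within DAPT and within vehicle lay close together, and the large standard error comes from the spread in the other groups, which the fit pools. Il33, an alarmin cytokine, was dim, meaning below the array median, on all vehicle arrays and at least 6.05-fold higher under DAPT, at 8.79 ± 0.06 under DAPT and 5.03 ± 0.62 in vehicle (adjusted p = 1.46e-07). Il33 was dim on all U0126 and TAE226 arrays too, and it passed the filter on dim genes only through the DAPT arrays. A gene that passes in this way can hardly do other than rise, so its calls add no weight. Gas1, a membrane protein that binds hedgehog ligands, had 12.57, 12.35 and 12.41 on the DAPT arrays, against 10.98, 11.04 and 11.77 on the vehicle arrays (log2 fold change 1.18, SE 0.15, adjusted p = 1.12e-05) and lay 2.16 above the mean of the other inhibitors. Angptl4, a lipase inhibitor induced by fasting and hypoxia, rose by 0.99 (adjusted p = 0.00101), while most hypoxia genes fell.

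Among genes that fell apart from the other inhibitors, Ugt8a, which makes galactosylceramide, had 7.33, 7.40 and 7.25 on the DAPT arrays, against 9.26, 9.21 and 9.34 on the vehicle arrays (log2 fold change -1.94, SE 0.08, adjusted p = 8.22e-12). Over all its probe sets the log2 fold change was -1.14 (adjusted p = 0.09). Its log2 fold changes under the other inhibitors were 0.22 for U0126, -0.02 for TAE226 and 0.11 for PP2. Aldh1a3, a retinoic acid-forming enzyme of luminal progenitors, was at least 3.44-fold lower (adjusted p = 2.34e-07), and Hp, the haemoglobin-binding haptoglobin, at least 3.22-fold lower (adjusted p = 2.24e-06). Both were dim on all DAPT arrays. Means of Aldh1a3 were 5.88 ± 0.39 under DAPT, 8.69 ± 0.32 under U0126, 7.37 ± 0.19 under TAE226, 8.51 ± 0.21 under PP2 and 8.11 ± 0.25 in vehicle (SD, n = 3 each). Mndal, of the interferon-inducible Ifi200 family, was dim there too and at least 12.4-fold lower (adjusted p = 1.80e-06), but it was also dim under U0126 and PP2, so its order against them is unknown, and its probe set may bind near-identical relatives. Adamts15, a matrix protease, fell by 1.67 on the log2 scale (adjusted p = 1.50e-10) and Slc43a3, a transporter of purine bases, by 1.53 (adjusted p = 2.44e-08). Under PP2 both went the other way, with log2 fold changes of 1.58 and 2.29.

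**Figure D3:**
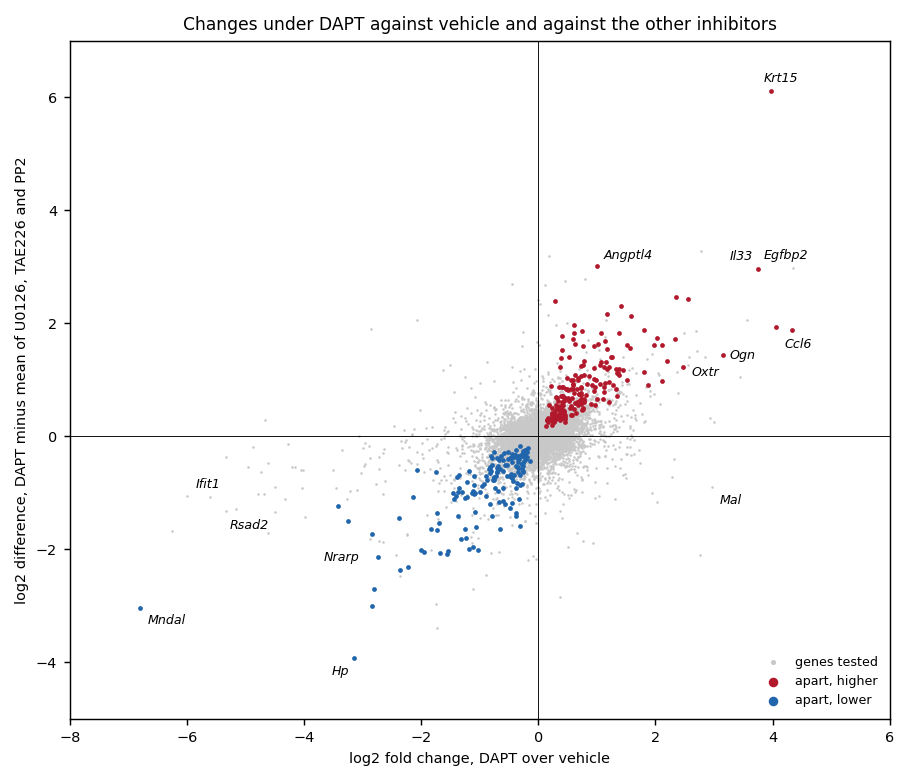
Each point is a gene tested, with its fitted log2 fold change of DAPT over vehicle across and its log2 difference between DAPT and the mean of U0126, TAE226 and PP2 upward; 203 genes apart and higher are red and 159 apart and lower are blue. Krt15 lies highest on the upward axis, and interferon genes such as Ifit1 and Rsad2 lie far to the left, at -1.08 and -1.32 upward; both axes use the same DAPT arrays, and fitted values of dim genes are not bounds.

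**Figure D4:**
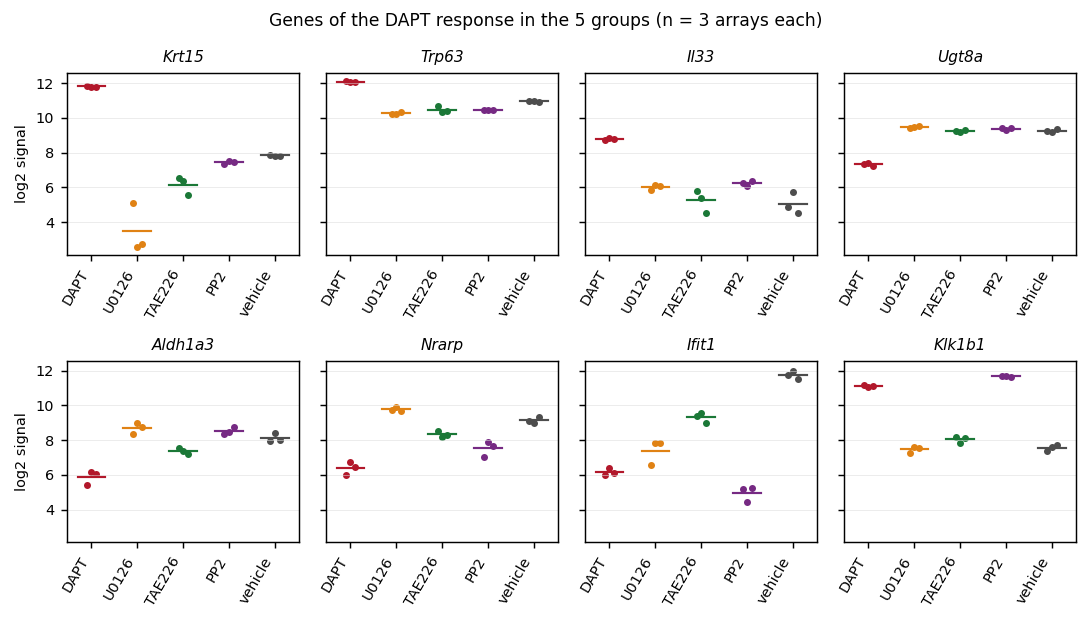
Log2 signal on each array of 8 genes in the 5 groups, DAPT first and vehicle last, with bars at the mean of 3 arrays. Krt15, Trp63 and Il33 are highest and Ugt8a, Aldh1a3 and Nrarp lowest under DAPT, Ifit1 is lower under every inhibitor than in vehicle, and Klk1b1 is high under DAPT and PP2.

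Genes of the basal and myoepithelial layer rose. Of 26 tested, 17 were higher, 2 lower and 7 did not pass, with a median log2 fold change of 0.71. Against the mean of the other inhibitors 19 of them were higher, and 11 were apart. Trp63, which encodes p63, had 12.10, 12.08 and 12.07 on the DAPT arrays, against 10.97, 10.96 and 10.92 on the vehicle arrays (log2 fold change 1.14, SE 0.07, adjusted p = 1.14e-09). Krt5, a keratin that p63 is known to activate, had 10.27, 10.34 and 10.55 on the DAPT arrays, against 9.52, 9.46 and 9.35 on the vehicle arrays (log2 fold change 0.95, SE 0.09, adjusted p = 1.91e-07). The DAPT and vehicle arrays were separate for both genes. Oxtr, the oxytocin receptor through which myoepithelial cells contract at milk let-down, had 11.45, 11.38 and 11.49 on the DAPT arrays, against 8.95, 8.95 and 9.03 on the vehicle arrays (log2 fold change 2.47, SE 0.07, adjusted p = 1.29e-13). Mylk, the kinase that activates smooth-muscle myosin, rose by 1.33 (adjusted p = 9.15e-10), and Snai2, a transcription factor of basal cells, by 0.73 (adjusted p = 9.23e-04). Sostdc1, a secreted inhibitor of BMP and WNT signals, rose by 1.26 and Lgr6, an R-spondin receptor, by 1.09 (adjusted p = 4.51e-11 and 4.08e-08).

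The shift did not cover the whole layer. Krt14, the partner of Krt5, had 13.21, 13.22 and 13.15 on the DAPT arrays, against 13.26, 13.18 and 13.40 on the vehicle arrays (log2 fold change -0.08, adjusted p = 0.378), so its groups overlapped. Acta2, the smooth-muscle actin of myoepithelium, was 6.79 ± 0.40 under DAPT and 6.46 ± 0.62 in vehicle (adjusted p = 0.419). Krt17 fell by 0.43 (adjusted p = 0.0263) with overlapping arrays, and did not pass without DAPT replicate 1 or 3, without vehicle replicate 1 or 2, or over all its probe sets (adjusted p 0.08 to 0.40). Chosen after their values were seen, Trp73, which encodes the p63 relative p73, rose by 1.38 and Mir205hg, the host transcript of a basal microRNA, by 1.07 (adjusted p = 3.51e-05 and 3.53e-08), and both were apart. The summed signal of the 9 basal markers was 19481 to 19648 under DAPT and 13620 to 14890 in vehicle. Such sums follow the brightest probe sets. That of 10 luminal markers was 69513 to 71459 under DAPT and 76634 to 79074 in vehicle. Neither pair of ranges overlapped.

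Luminal genes moved in both directions. Krt19, a luminal keratin, had 10.99, 10.91 and 10.84 on the DAPT arrays, against 11.74, 11.74 and 11.87 on the vehicle arrays (log2 fold change -0.87, SE 0.06, adjusted p = 1.53e-08). Krt18 fell by 0.34 and the epithelial adhesion molecule Epcam by 0.38 (adjusted p = 0.0028 and 7.89e-05), while Krt8 (-0.11, adjusted p = 0.293) and Krt7 (0.14, adjusted p = 0.155) did not pass. Gata3, the transcription factor that maintains luminal cells, had 11.64, 11.51 and 11.64 on the DAPT arrays, against 10.98, 10.97 and 11.07 on the vehicle arrays (log2 fold change 0.59, SE 0.05, adjusted p = 8.58e-08). Kit, a receptor of luminal progenitors, rose by 0.58, and Stat5a, which carries the prolactin signal, by 0.99 (adjusted p = 1.75e-07 and 1.04e-07). Of 22 progenitor and alveolar genes tested, 10 rose, 4 fell and 8 did not pass, and after median scaling 4 rose and 4 fell.

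Milk genes rose more often than they fell, 11 against 4 of 21 tested (median 0.62). Ltf, the iron-binding milk protein lactoferrin, had 13.70, 13.56 and 13.49 on the DAPT arrays, against 12.09, 12.17 and 12.19 on the vehicle arrays (log2 fold change 1.44, SE 0.08, adjusted p = 7.31e-10). Xdh and Btn1a1, which build the milk fat globule, rose by 1.05 and 1.12 (adjusted p = 2.98e-08 and 3.83e-08), though Btn1a1 did not pass over all its probe sets (adjusted p = 0.49). The casein gene Csn2 rose by 1.18 (adjusted p = 9.19e-05). Its mean was 7.66 ± 0.34 under DAPT and 13.28 ± 0.13 under PP2. Csn3, another casein, did not pass (-0.19, adjusted p = 0.114), but was called lower after median scaling (adjusted p = 0.02). Thrsp, a promoter of milk fat synthesis, had 12.55, 12.23 and 12.35 on the DAPT arrays, against 10.12, 10.31 and 10.37 on the vehicle arrays (log2 fold change 2.11, SE 0.08, adjusted p = 3.93e-12). All 3 DAPT values lay above the vehicle values.

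**Figure D5:**
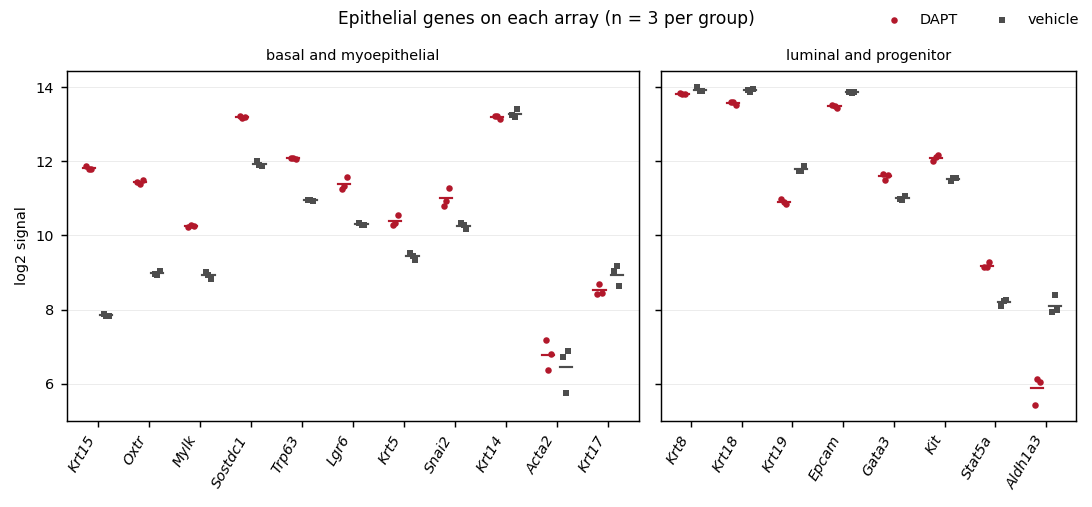
Log2 signal of basal, myoepithelial, luminal and progenitor genes on each array, with DAPT as red circles left of vehicle as grey squares and bars at the mean of 3 arrays. Krt15, Oxtr, Mylk, Sostdc1, Trp63 and Krt5 are separated upward under DAPT, Krt14 and Acta2 overlap, and Krt19 and Aldh1a3 are separated downward.

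Genes of adhesion were also higher more often than lower. Of 28 integrin and focal adhesion genes 14 rose and 1 fell, and 8 rose after median scaling or over all probe sets. Tns3, a tensin that links integrins to actin, had 11.06, 10.86 and 11.01 on the DAPT arrays, against 9.96, 9.95 and 10.19 on the vehicle arrays (log2 fold change 0.94, SE 0.08, adjusted p = 1.06e-07), and Itgb8, an integrin that activates latent TGF-β, rose by 0.78 (adjusted p = 6.31e-06). Among matrix genes, Ogn, the small proteoglycan osteoglycin, had 12.47, 12.58 and 12.54 on the DAPT arrays, against 9.40, 9.44 and 9.31 on the vehicle arrays (log2 fold change 3.15, SE 0.07, adjusted p = 1.47e-14). Matn2, a filament-forming matrilin, rose by 1.38 and Col4a6, a basement membrane collagen chain, by 0.67 (adjusted p = 9.58e-05 and 2.76e-04). The more widespread type IV chains fell, Col4a1 by 1.09 and Col4a2 by 0.52 (adjusted p = 1.57e-08 and 5.06e-04). Fbln5, which assembles elastic fibres, fell by 1.22 (adjusted p = 1.14e-10).

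Genes of growth factor and guidance signalling were higher more often than lower. Of 16 FGF, PDGF, VEGF and MET genes 9 rose and 3 fell. Fgfr2, the FGF receptor of epithelial buds, had 9.28, 9.37 and 9.19 on the DAPT arrays, against 7.99, 7.88 and 8.08 on the vehicle arrays (log2 fold change 1.30, SE 0.14, adjusted p = 1.21e-06), but 0.51 over all its probe sets (adjusted p = 0.26). Met, the receptor for hepatocyte growth factor, rose by 0.80 (adjusted p = 4.90e-08), while Vegfa fell by 0.76 (adjusted p = 4.23e-04, or 0.14 over all its probe sets). Of 36 TGF-β and BMP genes 14 rose and 8 fell, a balance that flipped to 7 and 9 after median scaling. Tgfbr3, the co-receptor betaglycan, rose by 1.18 and the ligand Tgfb3 by 1.32 (adjusted p = 8.64e-11 and 2.70e-11). Log2 fold changes of Tgfb3 against the same vehicle arrays were 1.13 under U0126, 0.60 under TAE226 and 1.76 under PP2. Inhbb, an activin and inhibin subunit, had 10.49, 10.41 and 10.53 on the DAPT arrays, against 12.27, 12.09 and 12.28 on the vehicle arrays (log2 fold change -1.74, SE 0.07, adjusted p = 1.41e-11). It fell further than any other gene of the list that passed.

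Of 35 WNT genes 11 rose and 3 fell, or 6 and 4 after median scaling. Ror1, a receptor for WNT5A, rose by 2.08 and Nkd2, an intracellular antagonist, fell by 1.07 (adjusted p = 1.07e-11 and 2.24e-08). Over all its probe sets Ror1 just missed the threshold (adjusted p = 0.05228). Its log2 fold changes against the same vehicle arrays were 1.36 under U0126, 0.79 under TAE226 and 2.43 under PP2. Sfrp1, a secreted WNT inhibitor, rose by 0.72 (adjusted p = 1.19e-06). Of 41 guidance genes 15 rose and 5 fell (3 fell without vehicle replicate 3), with the semaphorin Sema3e at 1.51 and the ligand Slit2 at 1.03 (adjusted p = 1.82e-09 and 1.34e-05). Slit2 had log2 fold changes of -0.24 under U0126, 1.16 under TAE226 and 0.19 under PP2. Irs1, which relays insulin and IGF signals, had 11.06, 10.98 and 11.00 on the DAPT arrays, against 11.86, 11.83 and 12.25 on the vehicle arrays (log2 fold change -0.97, SE 0.10, adjusted p = 1.88e-06), and Pappa, a protease that frees IGF from its binding proteins, rose by 2.39 (adjusted p = 5.45e-09). Pappa had log2 fold changes of 1.11 under U0126, 3.23 under TAE226 and 0.52 under PP2. Of 23 FOXO targets 9 rose and 4 fell, or 4 and 4 after median scaling. Fbxo32, a ubiquitin ligase subunit of atrophying muscle, had 13.08, 13.08 and 13.06 on the DAPT arrays, against 11.74, 11.65 and 11.81 on the vehicle arrays (log2 fold change 1.34, SE 0.05, adjusted p = 3.98e-12), and the stress protein Sesn1 rose by 1.44 (adjusted p = 1.19e-04).

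Interferon-stimulated genes were among the deepest falls. Of 41 tested, 40 fell and none rose, and the list's median was -2.72 on the log2 scale. With the 8 members that were dim under DAPT set to their bounds it was -2.42. Ifi27 was the exception (0.10, adjusted p = 0.396, or 0.21 with adjusted p = 0.04 over all its probe sets). Ifit1, which binds foreign RNA, had 5.99, 6.36 and 6.08 on the DAPT arrays, against 11.73, 11.98 and 11.52 on the vehicle arrays (log2 fold change -5.60, SE 0.29, adjusted p = 1.60e-10). Its DAPT signals lay near the array medians, so the size of the fall is uncertain. Ifi27l2a, Oasl2, Zbp1 and Mx2 were dim on all DAPT arrays and at least 27.5-fold, 16.8-fold, 14.4-fold and 5.57-fold lower. All 9 guanylate-binding and related GTPase genes tested fell, for example Gbp3, a GTPase that attacks pathogen vacuoles, at 7.05 ± 0.25 under DAPT and 11.79 ± 0.25 in vehicle (log2 fold change -4.74, SE 0.24, adjusted p = 1.36e-10). Probe sets of this family may bind near-identical relatives, so values of single members are uncertain. Without any 1 vehicle array, 8 of these genes were tested and 8 fell. The interferon-stimulated list then had 40 tested and 39 lower. A member that passes the filter on dim genes only through the vehicle arrays can hardly do other than fall, so such members add no weight to these counts. Among 14 leukocyte markers, 6 were tested and only Cd14 fell, by 0.39 (adjusted p = 1.66e-05). Linear signals of Cd14, which epithelium can also express, were 8665 to 8894 under DAPT and 11067 to 12157 in vehicle. The other 13 markers summed to 521 to 630 under DAPT and 463 to 564 in vehicle, ranges that overlap.

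Ifit1 was also lower under the other inhibitors, which share their vehicle arrays with DAPT. Its log2 fold changes were -4.35 under U0126 and -2.44 under TAE226, and it was dim on all PP2 arrays and at least 40.4-fold lower there. Those of Gbp3 were -5.42 under U0126, -1.95 under TAE226 and -4.93 under PP2. Without vehicle arrays, the median difference between DAPT and the mean of the other inhibitors was -0.42, with 21 of 41 lower, against 13.4% of all genes tested. It was -0.39 with groups set to their array medians where a gene was dim, which touched 13 of the 41. Only 1 of the 41 was apart, that is, also lower than under each other inhibitor. The genes that sense or receive interferon did not follow, with 6 higher and 4 lower of 22, which became 2 and 4 after median scaling. Ifngr2, a chain of the interferon-γ receptor, rose by 1.06 (adjusted p = 6.47e-07), and Cgas, a sensor of DNA in the cytosol, fell by 0.85 (adjusted p = 7.65e-05).

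The windows of the 3 leading interferon-stimulated genes with a RefSeq entry are shown because factors of the interferon response bind pairs of GAAA with 2 bases between them.
Ifit1: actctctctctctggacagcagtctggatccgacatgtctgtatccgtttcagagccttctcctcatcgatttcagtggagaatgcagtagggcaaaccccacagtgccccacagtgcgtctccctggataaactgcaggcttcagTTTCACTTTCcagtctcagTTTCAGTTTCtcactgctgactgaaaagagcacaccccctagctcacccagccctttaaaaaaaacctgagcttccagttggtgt
Oasl2: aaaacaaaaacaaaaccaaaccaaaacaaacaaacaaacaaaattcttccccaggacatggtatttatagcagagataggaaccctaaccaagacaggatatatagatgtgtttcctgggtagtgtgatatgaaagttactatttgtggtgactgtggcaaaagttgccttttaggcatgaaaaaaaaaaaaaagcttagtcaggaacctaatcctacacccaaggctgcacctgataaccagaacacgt
Rsad2: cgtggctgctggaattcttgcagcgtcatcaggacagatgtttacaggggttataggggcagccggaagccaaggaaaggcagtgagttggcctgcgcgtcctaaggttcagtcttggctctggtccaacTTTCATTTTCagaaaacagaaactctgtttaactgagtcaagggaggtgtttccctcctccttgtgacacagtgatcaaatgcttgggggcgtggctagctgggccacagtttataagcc
They are chr19:34640639-34640888 on the plus strand, chr5:114896684-114896933 on the plus strand and chr12:26456453-26456702 on the minus strand of GRCm38.p6, and capitals mark the motif on either strand. Ifit1 holds 2 matches, Rsad2 holds 1 and Oasl2 none. The motif was in 9 of 29 interferon-stimulated genes with a window (31.0%), against 3.04% of all genes tested with a window, 4.53% of those lower and 2.69% of those higher under DAPT.

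Genes of antigen presentation by MHC class I fell too, 16 of 17 tested (median -0.64). Psmb8, an immunoproteasome subunit, had 6.39, 6.48 and 6.73 on the DAPT arrays, against 10.59, 10.78 and 10.32 on the vehicle arrays (log2 fold change -4.03, SE 0.18, adjusted p = 3.18e-11), and the peptide transporter Tap1 fell by 1.97 (adjusted p = 1.31e-09). Both also fell under the other inhibitors against the same vehicle arrays. Log2 fold changes of Psmb8 were -3.45 under U0126, -1.99 under TAE226 and -3.93 under PP2, and those of Tap1 -1.59, -1.13 and -2.05. Of 11 NF-κB targets 7 fell and none rose. Against the mean of the other inhibitors 8 were lower, and 3 were apart. Tnfaip2, which is induced by TNF, had 6.62, 6.61 and 6.55 on the DAPT arrays, against 9.00, 8.90 and 9.02 on the vehicle arrays (log2 fold change -2.38, SE 0.12, adjusted p = 1.28e-10). Nfkbia, the inhibitor that NF-κB induces, fell by 0.65 (adjusted p = 5.05e-05), and its difference from the mean of the other inhibitors was -0.57 (adjusted p = 2.57e-05).

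Chemokine and cytokine genes split, with 6 higher and 9 lower of 27 tested. Without any 1 vehicle array, 24 or 25 were tested and 7 were lower. Some members thus passed the filter on dim genes only with all vehicle arrays, and their falls add no weight to the count. Ccl6, a CC chemokine, had 10.98, 11.01 and 10.87 on the DAPT arrays, against 6.60, 6.80 and 6.50 on the vehicle arrays (log2 fold change 4.32, SE 0.17, adjusted p = 4.86e-12). Ccl9, another CC chemokine, had 12.12, 11.98 and 12.08 on the DAPT arrays, against 9.66, 9.90 and 9.59 on the vehicle arrays (log2 fold change 2.34, SE 0.09, adjusted p = 5.30e-12). Both lay higher on every DAPT array than on any vehicle array and were apart from the other inhibitors. Against the same vehicle arrays, log2 fold changes of Ccl6 were 2.80 under U0126, 0.79 under TAE226 and 3.77 under PP2. Those of Ccl9 were 0.70, -0.25 and 1.43. Cxcl2, which recruits neutrophils, was at least 7.9-fold lower and dim on all DAPT arrays, and Cxcl1 fell by 1.27 (adjusted p = 6.65e-09 and 6.26e-10). Chosen after their values were seen, Ccl20, Lif and Ptgs2, the inducible cyclooxygenase, fell by 1.38, 0.83 and 0.57 (adjusted p = 2.43e-07, 1.49e-07 and 3.62e-05), and all 3 were apart. Defb1, an antimicrobial β-defensin, rose by 1.80 (adjusted p = 4.48e-09).

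The largest fitted rise against vehicle was in a tissue kallikrein. Egfbp2, a serine protease of the Klk1 family, had 10.57, 10.91 and 10.99 on the DAPT arrays, against 7.22, 5.69 and 6.53 on the vehicle arrays (log2 fold change 4.34, SE 0.27, adjusted p = 2.23e-09), and its relative Klk1b1 had 11.16, 11.04 and 11.13 on the DAPT arrays, against 7.34, 7.59 and 7.73 on the vehicle arrays (log2 fold change 3.56, SE 0.11, adjusted p = 5.56e-13). All DAPT arrays lay above the vehicle arrays for both. PP2 gave similar log2 fold changes against the same vehicle arrays, 4.45 and 4.11, so neither was apart. Their probe sets may bind other kallikreins of the family, which leaves the values of each gene uncertain. Gsta3, a glutathione transferase, had 10.80, 10.72 and 10.52 on the DAPT arrays, against 6.48, 6.65 and 6.74 on the vehicle arrays (log2 fold change 4.06, SE 0.10, adjusted p = 5.81e-14) and was apart. Its log2 fold changes against the same vehicle arrays were 2.80 under U0126, 0.62 under TAE226 and 2.97 under PP2. Vehicle signals of Egfbp2 lay around the array medians, and those of Ccl6 and Gsta3 not far above them. The sizes of these 3 rises, and so their order, are therefore uncertain. Mal, a protein of apical membrane sorting, rose by 2.97 (adjusted p = 9.98e-11), and its log2 fold change under U0126 against the same vehicle arrays was 6.45.

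Genes of cell division fell. The G2/M and mitosis list had 31 of 35 genes lower, with a median of -0.72, and the replication list 21 of 31, with a median of -0.42. Against the mean of the other inhibitors the G2/M median was -0.04, with 3 genes lower. Regulators of G1 were mixed. Ccnd1, the cyclin D1 gene, had 13.28, 13.24 and 13.26 on the DAPT arrays, against 13.78, 13.76 and 13.77 on the vehicle arrays (log2 fold change -0.51, SE 0.06, adjusted p = 3.20e-06). Cdkn1a, the inhibitor p21, fell by 0.79 and Cdkn1b, the inhibitor p27, by 0.48 (adjusted p = 4.29e-08 and 3.64e-06). Cdkn2a, whose products p16 and p19 are markers of senescence, rose by 0.37 (adjusted p = 0.00433, or 0.21 after median scaling), and Cdkn2b did not pass (0.13, adjusted p = 0.0827). Of 15 senescence-associated genes 1 rose and 7 fell.

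Hypoxia and stress-response genes were mostly lower. Klf4, a transcription factor of differentiating epithelium, had 8.33, 8.20 and 8.05 on the DAPT arrays, against 9.69, 9.78 and 9.60 on the vehicle arrays (log2 fold change -1.50, SE 0.09, adjusted p = 1.33e-09), while Myc (-0.06, adjusted p = 0.468) and Egr1 (0.01, adjusted p = 0.95) did not pass. Of 24 hypoxia genes 16 fell, and Egln3, an oxygen-sensing hydroxylase, fell by 1.51 (adjusted p = 5.52e-08). DAPT spheres nevertheless held more Egln3 than the mean of the other inhibitors (difference 1.25, adjusted p = 5.81e-08). Of 29 integrated stress response genes 24 fell, among them Chac1, which breaks down glutathione, by 1.61 (adjusted p = 8.38e-10). Log2 fold changes of Chac1 against the same vehicle arrays were -1.24 under U0126, -1.29 under TAE226 and -2.22 under PP2. The median difference of the list from the mean of the other inhibitors was -0.02. In that contrast 9 of the 29 were higher and 6 lower, against 14.8% and 13.4% of all genes tested. Of 77 oxidative phosphorylation genes 3 rose and 5 fell, which became 12 and 4 after quantile normalization and 1 and 9 after median scaling, and 3 fell without DAPT replicate 1, DAPT replicate 3 or vehicle replicate 1. Of 44 ribosomal protein genes 23 fell by small amounts (median -0.24). That count was 9 after quantile normalization, 36 after median scaling, and 13 when DAPT replicate 3 or vehicle replicate 3 was left out.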

How the data were processed

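Total RNA (250 ng per array) was hybridised to Affymetrix Mouse430_2 arrays. The deposited values are linear signal intensities that the authors made with MAS5 in Affymetrix Expression Console, per the submitters' processing notes, and each array has a trimmed mean of 500. Here they were put on the log2 scale. Of 45101 probe sets, 34945 named exactly 1 gene and 9160 named none. Genes were kept where 3 or more of the 15 arrays exceeded their own median, with 1 probe set per gene, the brightest of those not marked as cross-hybridising. Differences were tested with limma 3.58.1 in R 4.3.3, with an intensity trend, across 5 groups, and p-values were adjusted by Benjamini-Hochberg over 11412 genes. A gene below the array median on all 3 arrays of a group was called dim there, and its fold is given as at least the brighter group's mean over the dim group's array medians. Genes were named by rule: the largest changes against vehicle, the largest against the other inhibitors, the strongest and the brightest unchanged members of each list, all Notch genes and all markers; exceptions are marked. The gene lists and comparison were chosen with earlier results of these data known. The precision is limited by 3 arrays per group. The procedure was tested on simulated data.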

Additional observations from a re-analysis of the deposited data

Results flagged for a closer look

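Probe sets that name no gene, or several, lay outside the gene comparison. Among them, 778 of 3346 tested differed between DAPT and vehicle (23.3%; limma with Benjamini-Hochberg adjustment over these probe sets), 502 higher and 276 lower under DAPT. They were singled out because they carry a signal in data that the gene comparison leaves out.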

How the results depend on the processing

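The count of genes changed between DAPT and vehicle stayed within 1.5 times of 3948 in every alternative fit, between 3046 when all probe sets of a gene were averaged and 4006 with a pseudocount. The genes called were less stable than their number. After median scaling, 2676 of the 3948 were still called in the same direction. With all probe sets averaged, 3808 of them were tested, 2579 kept their call and direction, and 8 were called in the other direction. Leaving out each DAPT or vehicle array gave 3154 to 3506. The direction was less stable: after median scaling 689 genes were called higher, since the median of all genes shifted by -0.13. Under median scaling the contrast with the other inhibitors called 2007 genes, 696 of them lower, and 225 unnamed probe sets were higher. A stricter filter on dim probe sets, which tests fewer of them, left 499 unnamed probe sets changed and 222 higher. Leaving out 1 array gave 491 to 649 unnamed probe sets changed and 299 to 435 higher, the lowest without DAPT replicate 3; the cause was not tested. Leaving out 1 array in the contrast with the other inhibitors gave 2380 to 3383 genes. Averaging all probe sets turned Aph1a to 0.19 on the log2 scale, and the cause was not tested. The labels do not say whether replicate numbers pair the samples. Deviations from the group means correlated at -0.017, 0.200 and -0.016 between same-numbered DAPT and vehicle arrays. Between differently numbered arrays the correlations ran from -0.197 to 0.199. With 3 arrays per group, these values cannot show whether the samples were paired. With the replicate number as a block 3794 genes were called, and no named gene changed its call. Only 3 arrays per group limit what small changes can be detected.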

Other observations

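Other substrates of γ-secretase were described because DAPT blocks their cleavage too. Of 22 tested, 9 had higher transcript levels under DAPT, 5 lower levels and 8 did not pass. These counts became 4 higher and 5 lower after median scaling and 6 and 2 over all probe sets, and 3 were lower without DAPT replicate 2, vehicle replicate 1 or vehicle replicate 3. Lrp1, an endocytic receptor for lipoproteins, averaged 7.79 ± 0.15 under DAPT and 6.52 ± 0.20 in vehicle (log2 fold change 1.28, SE 0.17, adjusted p = 1.44e-05). Cdh2, the neural cadherin, rose by 0.77 and the ephrin Efnb2 by 0.64 (adjusted p = 4.70e-05 and 6.43e-05), but Efnb2 did not pass over all its probe sets (adjusted p = 0.07).

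Tgfa, a ligand of the EGF receptor, averaged 9.23 ± 0.16 under DAPT and 10.06 ± 0.06 in vehicle (log2 fold change -0.83, SE 0.11, adjusted p = 1.99e-05). Ereg, another ligand, fell by 0.71 (adjusted p = 0.00102). Of 20 genes of squamous differentiation tested, 2 rose, 6 fell and 12 did not pass, with a median log2 fold change of -0.05. Over all genes tested 17.1% rose and 17.5% fell, with a median of 0.02. The list's median ran from -0.21 with a stricter filter on dim genes to 0.04 without DAPT replicate 3. Of its members, 3 were dim in 1 group and 3 in both. Pkp1, a desmosome protein, averaged 11.24 ± 0.10 under DAPT and 12.40 ± 0.12 in vehicle (log2 fold change -1.16, SE 0.08, adjusted p = 3.64e-09).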
